A study of Homo sapiens with 15 samples.

Results

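The 85 genes described here encode the proteins of the cytosolic ribosome. They were chosen by name: every gene of the deposited table whose symbol is RPL or RPS followed by a number, or RPSA, RPLP0, RPLP1 or RPLP2, and which does not lie on the Y chromosome. Of the 85 among 19966 genes, 53 belong to the large and 32 to the small subunit, and 8 are paralogues that carry the name of a parent gene with an added L, such as RPL22L1. RNA sequencing was done on 293T, a transformed human embryonic kidney line, labelled as renal epithelial and kept in DMEM with serum. The 9 libraries compared are 3 of cells with SRSF1 knockdown after 12 h without serum, 3 of cells of wild-type genotype after 12 h without serum (starved cells), and 3 of wild-type cells that were not starved (fed cells). The labels give neither the reagent of the knockdown nor a control reagent in the other 2 groups, and do not tell whether each replicate was its own culture. The spread that the p-values measure may then be technical.

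Each of these proteins is made from its own gene, and the ribosome needs nearly all of them in equal numbers. Their mRNAs begin with a 5′ terminal oligopyrimidine tract (TOP), a cytosine followed by a run of pyrimidines, through which mTOR signalling and LARP1 adjust translation to nutrients and growth factors. Serum withdrawal is known to act on TOP mRNAs mainly at translation, which RNA levels do not measure. When ribosome assembly fails, RPL5 and RPL11 bind the ubiquitin ligase MDM2 together with the 5S rRNA.

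The annotated starts of the members whose results are described first, and of the paralogues RPL22L1 and RPS27L, are printed with 12 bases before and 16 from the start (RefSeq, GRCh38.p14). Capitals mark a TOP tract, taken as C at the annotated start followed by at least 4 further C or T; windows without capitals do not meet that definition.
RPS26 (chr12:56041906-56041933, plus strand): acacataacctcgattttcttccgccat
RPS28 (chr19:8321484-8321511, plus strand): ccgaagcacgtgactcctctccgccaga
RPL26 (chr17:8383178-8383205, minus strand): cagcgtgtagttCTCTTCCCTTTTgcgg
RPL22 (chr1:6199580-6199607, minus strand): ttcgctcacctcCCTTTCTaactccgct
RPL22L1 (chr3:170870180-170870207, minus strand): ggccgtagcttcCTCTCTgctctcgcgg
RPS23 (chr5:82278339-82278366, minus strand): tgcggtgcttctCTCTTTCgctcaggcc
RPS27 (chr1:153990750-153990777, plus strand): tccgctttcgctCCTTTCCggcggtgac
RPS27L (chr15:63157462-63157489, minus strand): ttgatgccgagcgcagatcgcttgcagc

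Of the 68 members counted in the RefSeq table of gene starts, 47 had such a tract at an annotated start, or 69.1%, against 5.14% of 27305 genes. Members on chromosome 8, such as RPL30, were left out of this count, while no chromosome was left out of the 27305 genes. Within 5 bases of the start it was found in 55 members, or 80.9%, against 25.2% of all genes. At the start itself the tract was found in 67.4% of the large subunit genes (29 of 43) and 72.0% of the small subunit genes (18 of 25). Of the 6 paralogues with an entry, only RPL22L1 had a tract at its start. RPS28 had a tract within 5 bases of its start and RPS26 did not, which says only how the letters stand relative to 1 annotated base.

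These are bulk samples, in which fewer cells of a type and less RNA per cell cannot be told apart. Together the members took up 7.81% ± 1.72 of all normalized counts in knockdown cells, 7.55% ± 1.06 in starved cells and 7.58% ± 0.73 in fed cells (SD, n = 3 each). The groups overlapped throughout. By library the share was 8.42%, 9.14% and 5.87% in knockdown cells, 7.34%, 8.70% and 6.61% in starved cells, and 7.33%, 7.001% and 8.40% in fed cells. The spread within each group was therefore larger than any difference between group means, and knockdown replicate 3 held the lowest share of the 9 libraries while knockdown replicate 2 held the highest.

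**Figure D1:**
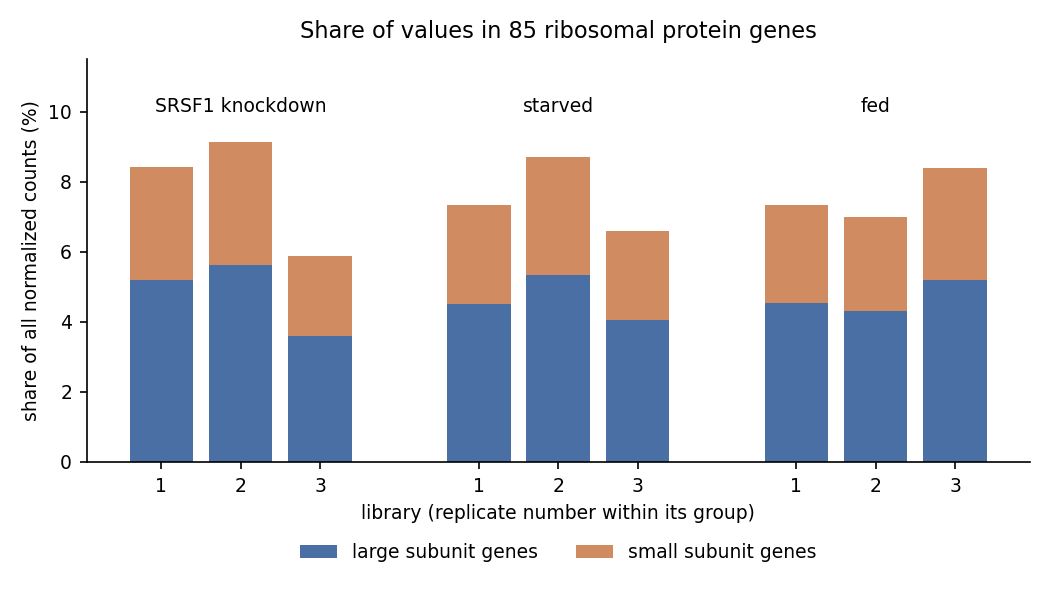
Share of all normalized counts (%) in the 85 ribosomal protein genes, by library, with large subunit genes below and small subunit genes above in each bar. Knockdown bars reach 5.87% to 9.14%, starved bars 6.61% to 8.70% and fed bars 7.001% to 8.40%, and the 2 subunits vary together.

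FPKM, a value per gene length, was computed from the normalized counts and the gene lengths in the table, with 1 mean total for all libraries. On the log2(FPKM + 1) scale, large subunit genes had a higher mean level than small subunit genes in each of the 9 libraries. The gap was 0.25, 0.23 and 0.22 in knockdown cells, 0.20, 0.20 and 0.25 in starved cells and 0.23, 0.21 and 0.22 in fed cells. The ratio of summed counts, large over small, was 1.61, 1.60 and 1.56 in knockdown cells, 1.60, 1.59 and 1.58 in starved cells and 1.62, 1.61 and 1.62 in fed cells. On that ratio both starved groups, with and without knockdown, had means of 1.59 against 1.62 in fed cells, and the starved and fed libraries did not overlap, while no p is given for a sum over chosen genes.

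The members' levels spanned a wide range. Per kilobase of coding sequence, RPL41, the shortest member with 75 coding bases, averaged 211030 normalized counts over the 9 libraries. RPS2 and RPL39 followed at 72677 and 68203, and the median of the 85 was 21076. By FPKM, which uses the lengths given in the table, the 3 highest were RPS2 (1972), RPL8 (1146) and RPL41 (1053). The 4 lowest were RPS10 (1.40), RPL17 (0.832), RPL3L (0.311) and RPL10L, which is listed at 0 in all 9 libraries. In human tissues RPL3L is known from skeletal muscle and heart and RPL10L from testis. RPL10L, RPL3L and RPL17 did not reach 1 FPKM in 3 libraries, and the other 82 members were tested among 11123 kept genes.

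RPS10 and RPL17 are ordinary ribosomal proteins, and they belong to a set of 7 members with low values. In GENCODE release 29, another protein-coding gene on the same strand covers over 50% of the coding bases of each, among them RPL17 (100%), RPL36A (94.3%), RPS10 (92.1%), RPL26 (71.0%), RPL22 (59.9%) and RPS15A (54.6%). The covering genes include the readthrough models RPL17-C18orf32, RPS10-NUDT3 and RPL36A-HNRNPH2, and all 7 covering genes are listed in the table at or below 1 normalized count in every library. These 7 members had a median of 509 normalized counts per kilobase of coding sequence, against 23416 for the 76 other kept members. The labels do not say how reads in shared exons were counted, and whether the low values come from that counting was not tested. This set was drawn up after values had been seen.

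Among the 82 tested members, 1 rose and 7 fell in SRSF1 knockdown cells relative to starved cells (limma, threshold of 0.05 after Benjamini-Hochberg adjustment). That is 8 of 82, where 46.4% of all tested genes passed the same threshold, 22.5% upward and 23.9% downward. Other scalings of the same libraries moved the calls to 2 up and 4 down (TPM, and each library divided by its own total) or 4 up and 7 down (quantile). The share of all tested genes that passed was not counted in these scalings. The median difference was -0.08 over the members and -0.04 over all tested genes (log2). Without overlap between the libraries, 2 members were higher and 9 lower, against 24.8% and 26.2% of all tested genes. With edgeR's quasi-likelihood test on the reads recovered for 8 libraries, 1 rose and 3 fell, where 36.6% of all tested genes passed. SRSF1 itself, the splicing factor targeted, had 2390, 2455 and 2382 normalized counts in knockdown cells and 3344, 3189 and 3205 in starved cells, a log2 difference of -0.42 ± 0.07 (SE; limma adjusted p = 0.0010). In fed cells it had 2588, 2485 and 2472, so its knockdown level stood close to the fed level (-0.06).

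RPS26, a small subunit protein at the mRNA exit channel, was the member that rose with the knockdown. It had 4860, 5596 and 6062 normalized counts in knockdown cells and 3202, 4335 and 2194 in starved cells. Every knockdown library stood above every starved library, and also above the fed libraries, at 3737, 3330 and 4654. The log2 difference from starved cells was 0.81 ± 0.22 (SE; limma adjusted p = 0.0122), and the difference from fed cells, 0.50 ± 0.22, did not pass (limma adjusted p = 0.13). In knockdown replicate 3, where 73 of 82 members were at their lowest for the group, RPS26 was at its highest. The call held in 22 of 23 alternative settings and was lost without starved replicate 3 and knockdown replicate 3 (limma adjusted p = 0.0624).

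RPS28, a small subunit protein beside RPS26 at the exit channel, had the largest fall. It had 468, 617 and 186 normalized counts in knockdown cells and 1506, 1774 and 558 in starved cells. The groups overlapped, because starved replicate 3 lay below knockdown replicate 2. The log2 difference was -1.52 ± 0.47 (SE; limma adjusted p = 0.0214). The call was lost without starved replicate 1, starved replicate 2 or knockdown replicate 3 (limma adjusted p = 0.0816, 0.0763 and 0.0642), and by edgeR (adjusted p = 0.0532). Against fed cells, at 893, 803 and 1477, all 3 knockdown libraries were lower, with a log2 difference of -1.36 ± 0.47 that did not pass (limma adjusted p = 0.0655) but did without knockdown replicate 2 (limma adjusted p = 0.0446). RPS28 had the widest range of the kept members, 9.54-fold between its highest and lowest library.

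RPL26, a large subunit protein near the exit tunnel, fell to 168, 154 and 170 normalized counts in knockdown cells, against 383, 259 and 238 in starved cells. The libraries did not overlap, and the log2 difference was -0.70 ± 0.14 (SE; limma adjusted p = 0.0024). RPL22, which also binds the EBER1 RNA of Epstein-Barr virus, had 1023, 964 and 646 in knockdown cells and 1275, 1321 and 1276 in starved cells (-0.55 ± 0.14; limma adjusted p = 0.0085). The calls of both genes held in each of the 23 alternative settings run, with log2 differences of -0.84 to -0.51 for RPL26 and -0.67 to -0.34 for RPL22.

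RPS15A, at chr16:18781295-18790383 on the minus strand, had 358, 411 and 220 normalized counts in knockdown cells and 465, 480 and 489 in starved cells (-0.46 ± 0.15; limma adjusted p = 0.0255). RPS10 had 34.9, 36.3 and 21.7 in knockdown cells and 54.1, 55.1 and 39.5 in starved cells (-0.38 ± 0.13; limma adjusted p = 0.0362). Neither gene's groups overlapped. RPS23, the protein at the decoding centre, had 961, 1059 and 1026 in knockdown cells and 1267, 1206 and 1181 in starved cells (-0.25 ± 0.08; limma adjusted p = 0.0222). Each of the 3 calls was lost by TPM, by dividing each library by its own total and by edgeR, with adjusted p of 0.0506 to 0.1798. RPS15A and RPS10 were also lost without a filter (limma adjusted p = 0.0512 and 0.0626), and RPS23 by quantile normalization, where its difference was -0.15 (limma adjusted p = 0.1508). Each was lost as well when some single libraries were left out. For RPS15A it was each starved replicate in turn (limma adjusted p = 0.0580, 0.0539 and 0.0680). For RPS10 it was starved replicates 1 and 2 and knockdown replicate 3 (limma adjusted p = 0.1126, 0.1001 and 0.1036). For RPS23 it was starved replicate 1 and knockdown replicate 1 (limma adjusted p = 0.0752 and 0.0805).

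**Figure D2:**
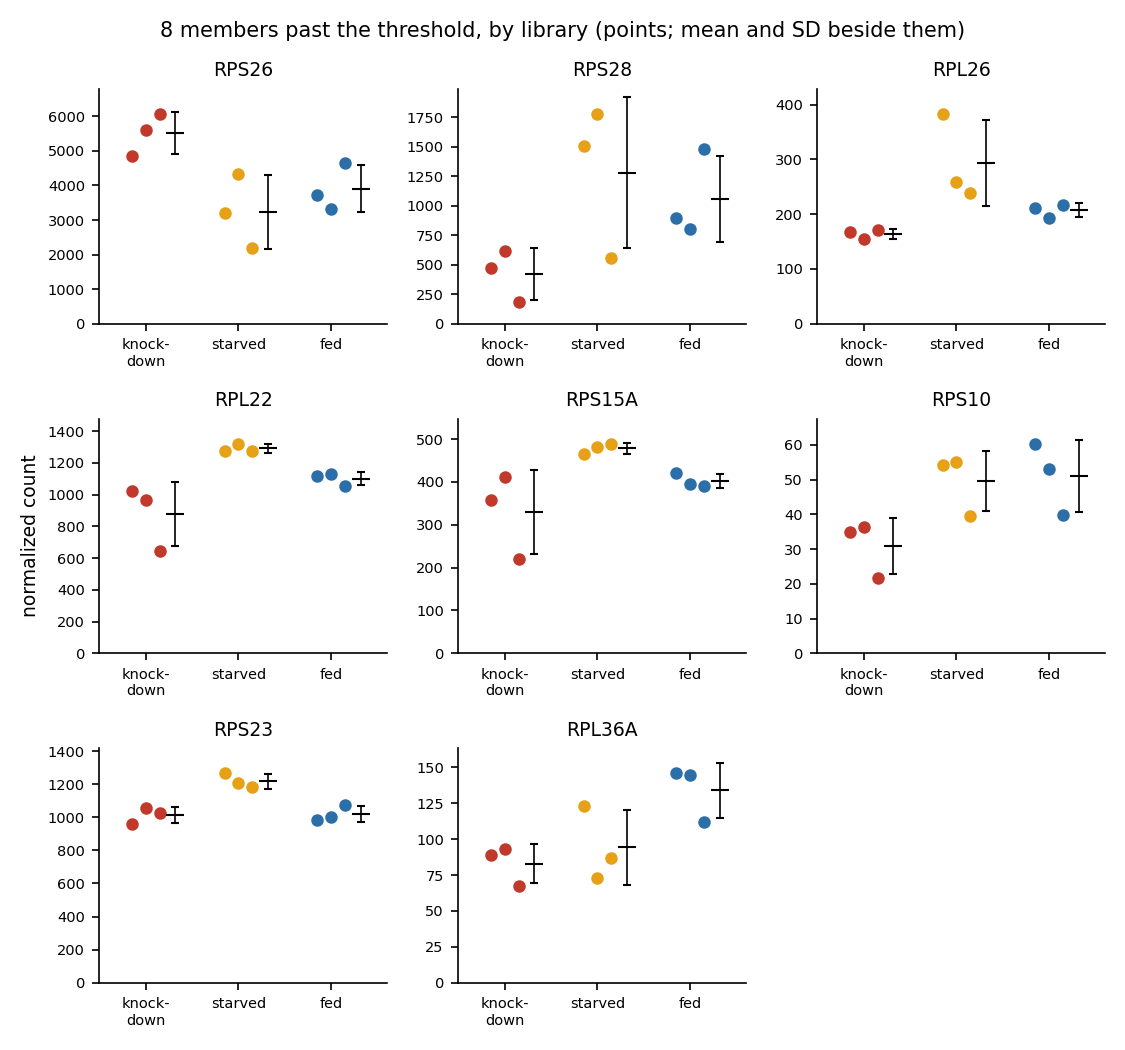
Normalized count by library of 8 members past the threshold in at least 1 comparison, 1 panel a gene, with SRSF1 knockdown, starved and fed libraries from left to right. Points are single libraries and the black bars beside them give mean and SD (n = 3); RPS26 is highest in knockdown libraries, and RPL26 and RPL22 are lowest there without overlap with starved libraries.

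Of the 7 members that fell, 5, among them RPL26, RPL22, RPS15A and RPS10, belong to the 6 tested genes whose coding bases are mostly shared with another gene, and RPL36A, which also belongs to them, differed by -0.11. Among the other 76 tested members RPS26 rose, and RPS23 and RPS28 fell. Over all tested genes 22.5% rose and 23.9% fell. The genes with shared coding bases were set apart after values had been seen, so their count is a description. RPS23 is overlapped on the opposite strand, over 54.1% of its coding bases, by ATG10, which had at most 94.6 normalized counts in any library; without knowledge of strand, reads of such a pair cannot be told apart. RPS26 has 30 and RPS28 3 pseudogenes named after it in the annotation, and reads of near-identical copies may be split, so the levels of members with many copies are uncertain. Over the 82 members the number of such pseudogenes was nearly unrelated to the mean count (Spearman's rho 0.07 across genes, a description).

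The next differences in size did not pass. RPL22L1, the paralogue of RPL22, stood at 555, 698 and 311 normalized counts in knockdown cells, 804, 986 and 534 in starved cells and 897, 763 and 1056 in fed cells. Its knockdown and fed libraries did not overlap, but neither the difference from fed cells (-0.82 ± 0.28; limma adjusted p = 0.0610) nor that from starved cells (-0.57 ± 0.28; limma adjusted p = 0.11) passed. It passed in both without knockdown replicate 2 (limma adjusted p = 0.0306 relative to fed and 0.0353 relative to starved cells). Relative to starved cells it also passed without starved replicate 3 (limma adjusted p = 0.0418). Relative to fed cells it also passed by TPM and by quantile normalization (limma adjusted p = 0.0435 and 0.0469). RPL22L1 passed in 5 of 23 alternative settings relative to fed and in 3 relative to starved cells. RPLP1, of the P stalk that recruits elongation factors, had 16188, 17969 and 3574 in knockdown cells and 14174, 19594 and 12400 in starved cells. Its difference of -0.57 ± 0.49 rested on knockdown replicate 3, without which it was 0.18. The other stalk proteins RPLP0, RPLP2 and RPL12 differed by 0.02, -0.03 and -0.01. RPL4, which lines the exit tunnel, had 53538, 56545 and 58813 in knockdown cells and 41818, 52070 and 43373 in starved cells, without overlap. Its difference was 0.30 ± 0.13 (limma adjusted p = 0.0810), but it passed in 7 of 23 alternative settings. Among these were TPM, own-total and quantile scaling (limma adjusted p = 0.0098, 0.0194 and 0.0460). It also passed with limma without trend and without starved replicate 2 (limma adjusted p = 0.0284 and 0.0233). RPS27 and RPL38 were at 0.35 and 0.29, with overlapping groups.

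After starvation alone the count was smaller still. Relative to fed cells, 2 of 82 members rose in starved cells and 0 fell, where 42.8% of all tested genes passed, 21.5% upward and 21.3% downward. At an unadjusted p under 0.05 there were 3 members, against 50.9% of all tested genes, and edgeR on 8 libraries called 1, which was lower, where 34.7% of all tested genes passed. The members that rose were RPL26, with 383, 259 and 238 normalized counts in starved cells and 212, 192 and 217 in fed cells, and RPS23, with 1267, 1206 and 1181 in starved cells and 983, 1004 and 1074 in fed cells. Neither gene's groups overlapped. The log2 differences were 0.42 ± 0.14 for RPL26 and 0.24 ± 0.08 for RPS23 (SE; limma adjusted p = 0.0348 and 0.0269). Without fed replicate 1 or fed replicate 2 neither passed (limma adjusted p = 0.0743 and 0.1123 for RPL26, 0.1006 and 0.0893 for RPS23). RPL26 was also lost without fed replicate 3 or starved replicate 1 (limma adjusted p = 0.0634 and 0.0873), and RPS23 without starved replicate 1 or 3 (limma adjusted p = 0.0849 and 0.0539). Both calls were lost by TPM (limma adjusted p = 0.1253 for RPL26 and 0.2151 for RPS23), by dividing each library by its own total (limma adjusted p = 0.0929 and 0.1210) and by edgeR (adjusted p = 0.2105 and 0.1662). RPS23 was also lost by quantile normalization, at 0.14, and RPL26 without a filter (limma adjusted p = 0.1912 and 0.0614).

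The median member differed by 0.08 between starved and fed cells, against 0.03 over all tested genes. Its sign depended on the scaling: it was -0.02 by TPM and -0.01 by quantile normalization or when each library was divided by its own total. The last of these called 0 members up and 2 down, and the share of all tested genes that passed there was not counted. Medians were 0.08 in the large and 0.10 in the small subunit. Of the members, 65 had a positive and 17 a negative difference, with a range of -0.35 to 0.42. Groups of libraries did not overlap for 5 members that were higher in starved cells (RPL5, RPL22, RPL26, RPS15A and RPS23) and for RPL7L1, which was lower; 30.6% and 28.6% of all tested genes did not overlap in those directions. The largest negative value was that of RPL36A, with 123, 72.7 and 87.2 normalized counts in starved cells and 146, 144 and 112 in fed cells (-0.35 ± 0.14; limma adjusted p = 0.0593). It passed without fed replicate 3 or starved replicate 1 (limma adjusted p = 0.0457 and 0.0166), with a replicate block (limma adjusted p = 0.0388), and by own-total and TMM scaling (limma adjusted p = 0.0454 and 0.0495). By edgeR on 8 libraries it also passed, at -0.78 (adjusted p = 0.0183). RPS26 was at -0.31, RPL22L1 at -0.25 and RPL39L at -0.22, and on the other side RPL37 was at 0.38, RPL30 at 0.30 and RPL35 at 0.25, all with overlapping groups. RPS26 passed without starved replicate 2 and RPL37 without starved replicate 3 (limma adjusted p = 0.0451 and 0.0491). Leaving out 1 library moved RPS26 between -0.54 and -0.05, RPL22L1 between -0.44 and -0.01, RPL39L between -0.31 and -0.11, RPL37 between 0.18 and 0.67 and RPL30 between 0.03 and 0.56.

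Between SRSF1 knockdown and fed cells, 0 members rose and 1 fell, where 18.5% of all tested genes passed, 9.27% upward and 9.23% downward. At an unadjusted p under 0.05 there were 8 members, against 34.8% of all tested genes, and edgeR also called 1 lower, where 17.5% of all tested genes passed. Without overlap between the libraries, 3 members were higher in knockdown cells and 9 lower, against 20.1% and 21.0% of all tested genes. The member that fell was RPL36A, with 88.9, 92.9 and 67.1 normalized counts in knockdown cells and 146, 144 and 112 in fed cells (-0.46 ± 0.14; limma adjusted p = 0.0413). The groups did not overlap, yet leaving out fed replicate 1, fed replicate 2 or any knockdown replicate raised the adjusted p above the threshold (limma adjusted p = 0.1421, 0.1315, 0.0675, 0.0530 and 0.0873). The call of RPL36A was also lost by TPM, where RPL22L1 passed, and without a filter (limma adjusted p for RPL36A = 0.0684 and 0.0758). The members' median difference was 0.00, and 42 differences were positive and 40 negative. The largest positive ones, none past the threshold, were RPS27 (0.55), RPL35 (0.53), RPS26 (0.50) and RPL38 (0.49). The largest negative ones, beside RPL36A, were RPS28 (-1.36), RPL22L1 (-0.82) and RPLP1 (-0.50). The 3 comparisons share libraries, so their values are given side by side and not as support for each other.

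**Figure D3:**
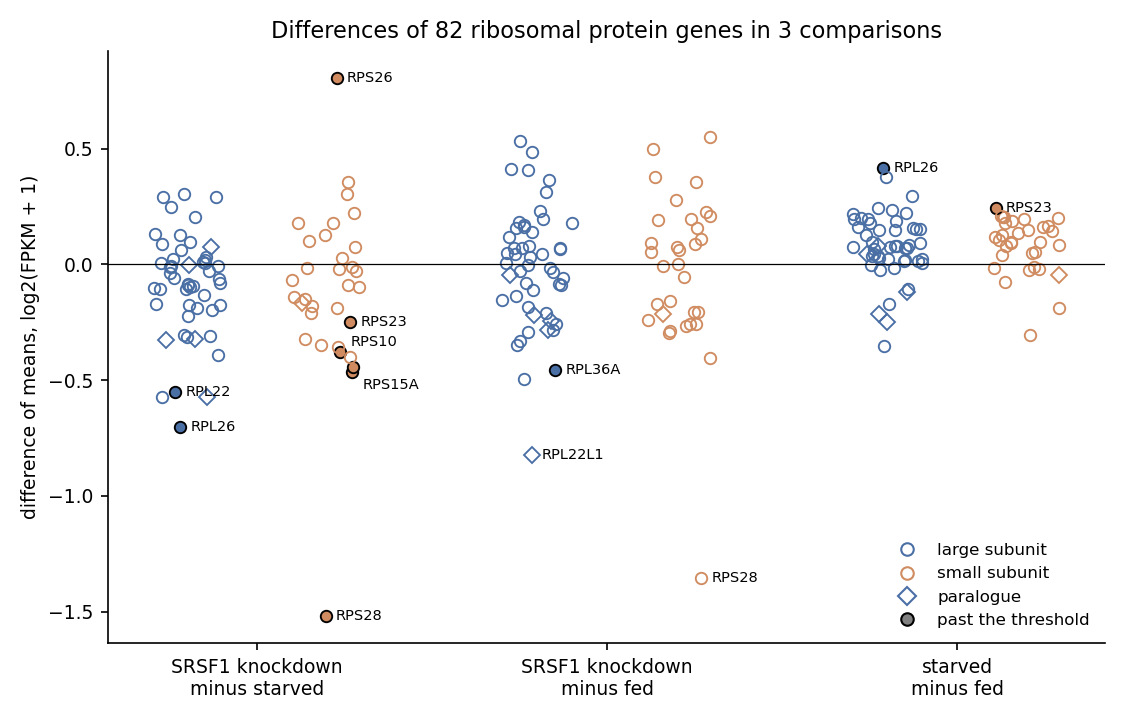
Difference of group means on the log2(FPKM + 1) scale for the 82 tested ribosomal protein genes in 3 comparisons, large subunit at the left and small subunit at the right of each column. Filled points passed limma's adjusted threshold (8, 1 and 2 from left to right), diamonds are paralogues, and most genes lie within 0.5 of 0.

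Within each group the members moved together from library to library. In knockdown cells, replicate 2 was the highest of its group for 74 of 82 members and replicate 3 the lowest for 73. In starved cells, replicate 2 was the highest for 74 and replicate 3 the lowest for 58. In fed cells, replicate 3 was the highest for 77 and replicate 2 the lowest for 65. Over all tested genes, any 1 library was the highest of its group for 22.3% to 45.4% of genes and the lowest for 25.7% to 39.0%. The median member deviated from its own mean over the 9 libraries by 0.13, 0.29 and -0.49 (log2) in knockdown cells, by 0.07, 0.33 and -0.20 in starved cells, and by -0.08, -0.14 and 0.17 in fed cells.

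Shorter members deviated more, by the median, in each of the 9 libraries. The 41 members with at most 448.5 coding bases, the median, had a median deviation of -0.50 in knockdown replicate 3 and -0.37 in starved replicate 3, against -0.43 and -0.09 for the 41 longer members. In starved replicate 2 the medians were 0.42 for the shorter and 0.29 for the longer members, and in fed replicate 2 they were -0.23 and -0.11. Spearman's rho between deviation and coding length across the 82 members was -0.23, -0.40 and 0.26 in knockdown cells, -0.65, -0.50 and 0.59 in starved cells and 0.15, 0.35 and -0.55 in fed cells, given as a description. Over all tested genes it was -0.23 to 0.30. The 694 other genes of the same short length deviated in the same direction in every library but fed replicate 1, by -0.23 in knockdown replicate 3 and 0.18 in starved replicate 2. Whether library preparation or RNA quality has a part in this was not tested.

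RPL41, with 75 coding bases, had 17604, 20459 and 7806 normalized counts in knockdown cells and 18368, 22524 and 9672 in starved cells. RPL39, which sits in the exit tunnel, had 11435, 15038 and 7707 in knockdown cells and 12576, 15350 and 5241 in starved cells. In both groups replicate 3 was the lowest and replicate 2 the highest for both genes. By contrast RPL7L1 (765 coding bases), RPL6 (864) and RPS4X (789) varied only 1.19-fold, 1.24-fold and 1.29-fold between their highest and lowest library.

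**Figure D4:**
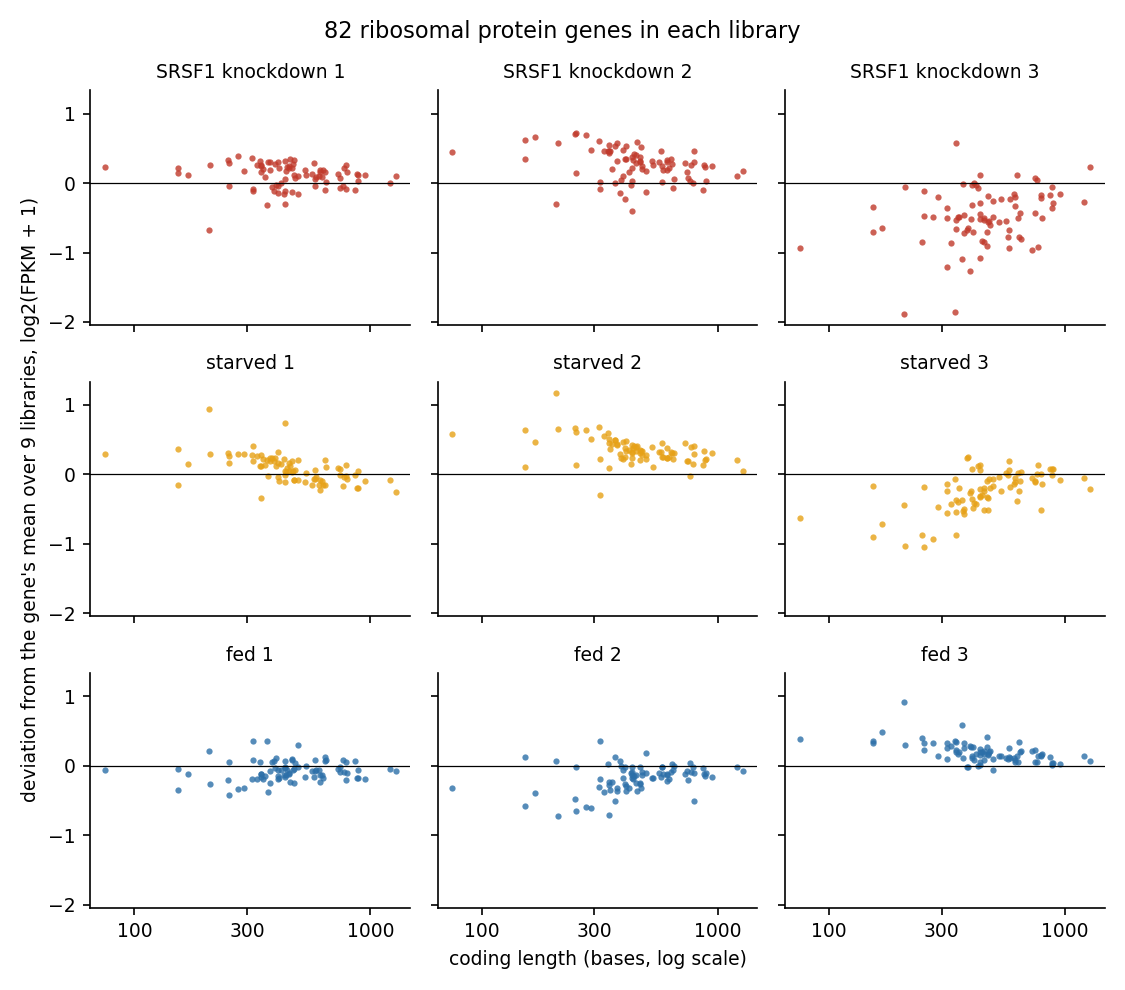
Deviation of each of the 82 tested ribosomal protein genes from its own mean over the 9 libraries (log2(FPKM + 1)) against its coding length in bases (log scale), 1 panel a library. Nearly all points of SRSF1 knockdown 3 lie below 0 and those of starved 2 above it, and short genes lie farthest from 0 in starved 3, fed 2 and fed 3.

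The direction of the members' typical difference depended on which libraries entered. Over all tested genes starved replicate 2 and knockdown replicate 3 correlated least with the others of their group (0.969 to 0.988 across genes), and over the members starved replicate 3 and knockdown replicate 3 did (0.977 to 0.983). Without starved replicate 2 and knockdown replicate 3, 26 members rose and 5 fell in knockdown relative to starved cells, with a median of 0.32, where 27.6% and 29.4% of all tested genes passed. Without starved replicate 3 and knockdown replicate 3, 0 rose and 8 fell, with a median of 0.03, where 21.5% and 22.3% passed. In starved relative to fed cells the first pair left out gave 3 up and 3 down, where 29.2% and 27.1% of all tested genes passed, and the second gave 10 up and 0 down, where 23.5% and 22.4% passed. In knockdown relative to fed cells they gave 9 up and 2 down, where 16.2% and 16.8% passed, and 1 up and 2 down, where 10.2% and 10.1% passed. Knockdown replicate 3 also had the largest share of counts from mitochondrially encoded genes, 5.56%, against 3.52% and 3.75% in the other knockdown libraries; the part of this in the result was not tested.

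The paralogues were compared with their parents as the log2 ratio of FPKM + 1 in each library. RPS27L, a relative of RPS27, stood at -7.13, -7.39 and -7.17 in knockdown cells, at -6.91, -7.28 and -5.94 in starved cells and at -6.32, -6.17 and -6.91 in fed cells. RPL39L, known from male germ cells, stood relative to RPL39 at -4.82, -5.02 and -5.11 in knockdown cells, at -5.26, -5.29 and -4.01 in starved cells and at -4.44, -4.04 and -4.72 in fed cells. For both pairs every knockdown library was below every fed library, with mean differences of -0.76 and -0.58, and the starved libraries overlapped both. Both parents are among the short members that differed between replicates, and the paralogues themselves differed by -0.21 and -0.22 between knockdown and fed cells, with overlapping groups.

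By FPKM, which uses the lengths in the table, RPL22L1 was above RPL22 in every library but starved replicate 3. Per kilobase of coding sequence the order turned, with RPL22L1 at 2005 and RPL22 at 2838 normalized counts over the 9 libraries. The log2 ratio was 0.29, 0.69 and 0.12 in knockdown cells, 0.50, 0.74 and -0.07 in starved cells and 0.83, 0.59 and 1.14 in fed cells, so knockdown and fed libraries overlapped and the means, 0.36 ± 0.29 and 0.85 ± 0.28 (SD, n = 3), differed by -0.49. RPL36AL over RPL36A averaged 5.80 ± 0.13 in knockdown cells, 6.02 ± 0.31 in starved cells and 5.59 ± 0.36 in fed cells. RPL26L1 over RPL26 averaged 3.36 ± 0.34 in knockdown cells, 2.99 ± 0.45 in starved cells and 3.36 ± 0.05 in fed cells. These 3 parents are among the genes with shared coding bases and low values. RPL7L1, whose relative in budding yeast acts in ribosome assembly, stood relative to RPL7 at -3.07 ± 0.34 in knockdown cells, -3.24 ± 0.17 in starved cells and -3.14 ± 0.16 in fed cells. The groups overlapped for all 4 of these pairs.

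**Figure D5:**
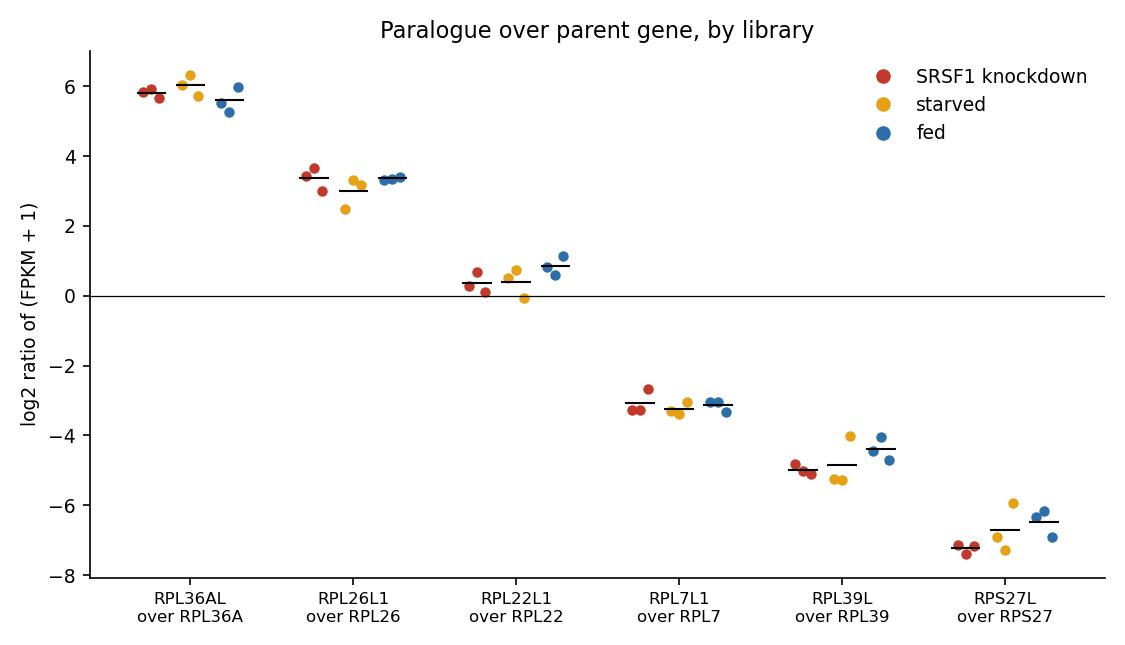
Log2 ratio of FPKM + 1, paralogue over parent gene, for the 6 pairs in which both genes were tested, with SRSF1 knockdown, starved and fed libraries from left to right within each pair. Points are libraries and bars are group means; knockdown points lie below fed points in the pairs RPL39L over RPL39 and RPS27L over RPS27, and the groups overlap in the other 4.

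Among the 20 members mutated in Diamond-Blackfan anaemia, a failure of red cell production, 1 rose (RPS26) and 5 fell (among them RPS28, RPL26, RPS15A and RPS10) in knockdown relative to starved cells, and 1 rose (RPL26) and 0 fell in starved relative to fed cells. Over all tested genes 22.5% rose and 23.9% fell with the knockdown and 21.5% rose and 21.3% fell with starvation, so the share of these members that fell with the knockdown was near that of all genes. RPL5 had 24436, 24478 and 19633 normalized counts in knockdown cells, 24748, 27891 and 25200 in starved cells and 22955, 22252 and 24596 in fed cells. Starved libraries were above fed libraries and knockdown libraries below starved libraries without overlap, but the differences, 0.16 and -0.19, did not pass (limma adjusted p = 0.36 and 0.25). RPL11 differed by -0.02 and 0.09. Their partner MDM2 rose by 0.61 ± 0.11 in starved relative to fed cells and fell by 0.52 ± 0.11 in knockdown relative to starved cells (SE; limma adjusted p = 0.0015 and 0.0032). CDKN1A, an inhibitor of the cell cycle, rose by 1.20 ± 0.12 in knockdown relative to starved cells (limma adjusted p = 4.0e-05).

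FAU and RACK1, ribosomal proteins outside the name rule, passed in none of the 3 comparisons. Of 18 tested mRNAs of other TOP genes, 2 rose and 3 fell in knockdown relative to starved cells, against 22.5% and 23.9% of all tested genes. EEF1D, an elongation factor subunit, was the largest fall, with 1072 ± 334 normalized counts in knockdown cells and 2352 ± 79.5 in starved cells (SD, n = 3 each; -1.09 ± 0.18, limma adjusted p = 0.0006), and VIM, the intermediate filament vimentin, the largest rise, with 3573 ± 608 in knockdown cells and 1895 ± 251 in starved cells (0.89 ± 0.13, limma adjusted p = 0.0004). In starved relative to fed cells 2 of the 18 rose and 1 fell, against 21.5% and 21.3% of all tested genes, with EEF1D at 1.04 ± 0.18. Of 15 regulators of TOP mRNAs 3 rose and 5 fell with the knockdown (22.5% and 23.9% of all tested genes), among them RPTOR, the mTORC1 scaffold (0.78 ± 0.10), and TIA1, which binds TOP mRNAs (-0.82 ± 0.13). LARP1 and MTOR passed in neither of these comparisons.

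Of 13 chaperones and importers of ribosomal proteins, 4 rose and 1 fell in starved relative to fed cells, and 1 rose and 6 fell in knockdown relative to starved cells. All tested genes passed at 21.5% and 21.3% in the first and at 22.5% and 23.9% in the second of these comparisons. The importins KPNB1 and TNPO1 differed by 0.59 ± 0.10 and 0.54 ± 0.11 in starved relative to fed cells and by -0.50 ± 0.10 and -0.49 ± 0.11 in knockdown relative to starved cells. GRWD1, the RPL3 chaperone, differed by 0.46 ± 0.12 and -0.44 ± 0.12. Of 12 genes for ubiquitination and turnover of ribosomal proteins, 4 rose and 3 fell with the knockdown, against 22.5% and 23.9% of all tested genes. The deubiquitinase OTUD3 differed by 0.81 ± 0.11 in starved relative to fed cells and by -0.75 ± 0.11 in knockdown relative to starved cells (limma adjusted p = 0.0003 and 0.0004). Of 5 factors of inactive ribosomes, IFRD2 alone passed, at -0.61 ± 0.15 and 0.55 ± 0.15.

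Of the markers of the line, KRT8 (728 to 1698 normalized counts as group means), KRT18, CDH2, NEFM, NEFL, EYA1 and LHX1 were tested, while PAX2 and EPCAM were below the filter and PAX8 was at 0 in 8 of 9 libraries. Of the 7 tested, 5 rose and 0 fell in knockdown relative to starved cells, by up to 1.56 (NEFL), against 22.5% and 23.9% of all tested genes. In starved relative to fed cells 0 rose and 3 fell, against 21.5% and 21.3% of all tested genes. The part of these markers in the members' values was not tested. Of 12 markers of other cell types, 2 passed the filter, COL1A1 in all groups and HBB, which had 861, 867 and 827 normalized counts in knockdown cells and 0 in starved cells. CD3E was at 0 in every library and PTPRC, ALB and PECAM1 reached at most 37.2. ACTA1, a muscle marker below the filter, averaged 23.6 normalized counts in knockdown cells, 38.4 in starved cells and 7.69 in fed cells. Whether these markers had a part in the members' values was not tested. Summed over the 12 markers, the level was 1306 to 1362 normalized counts in knockdown cells, 264 to 308 in starved cells and 443 to 473 in fed cells; without HBB and COL1A1 it was 53.1 to 105, 44.1 to 72.1 and 20.4 to 32.7. Recovered totals were 11775367 to 15231651 reads per library in 8 libraries.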

How the data were processed

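Libraries made with a SMARTER mRNA kit from 293T RNA were sequenced, per the labels' protocols. The table is named for FPKM, but its deposited signal values are whole read counts, divided in each library by 1 size factor. In the 8 libraries whose reads were recovered, 100% of values are whole multiples of 1 step (relative tolerance 1e-08). They are called normalized counts here. For aligner, counting tool and use of strand, the sources used here give nothing. The submitters' processing notes name the build mm10, but all 85 members lie at their gene in GRCh38 (GENCODE release 29). SRPK1 and UPF1 knockdown, labelled in 6 further samples, were not analysed here.

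FPKM was computed from the values, the table's lengths and 1 mean total for all libraries, which keeps the authors' scaling. A gene was kept if 3 or more libraries had it at 1 FPKM or above, and log2(FPKM + 1) was fitted with limma (trend, 3 group means, 9 libraries), two-sided, with Benjamini-Hochberg adjusted p-values over the 11123 kept genes and a threshold of 0.05. A fold change on this scale understates that of low genes. Planning had assumed FPKM. The fit was tested on simulated data.

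The members and lists were chosen with earlier results of these data known. Named genes were members past the threshold, the 4 largest differences each way in each comparison, paralogues with their parents, the 4 highest and lowest by FPKM, RPL5 and RPL11, SRSF1 and up to 4 genes of each further list; genes named for library spread, missing overlap between groups or shared coding bases were chosen after their values were seen. Some genes that this rule names are not reported here. Alternatives were pseudocounts of 0.1 and 0.5, no filter or one of 5 FPKM, median ratio, TPM, quantile, TMM and own-total scaling, log2(normalized count + 1), limma without trend or robust, only 2 groups, a replicate block, each library left out, and edgeR on the recovered reads of 8 libraries; TMM, own-total scaling, log2(normalized count + 1) and leaving out pairs of libraries were chosen after seeing the data. Starved replicate 1 was not among the 8 libraries whose reads were recovered, so edgeR ran without it. That its reads cannot be recovered was not shown. Leaving this library out also changed the limma calls of RPL26, RPS23 and RPL36A in starved relative to fed cells, as given above. In knockdown relative to starved cells it changed those of RPS28, RPS15A, RPS10 and RPS23. For these genes a difference between edgeR and limma cannot be told apart from the missing library. Sequences came from RefSeq (GRCh38.p14) and were matched by symbol. Scripts ran in Python 3.11.15 with pandas 2.3.3, numpy 2.4.6 and matplotlib 3.10.9, and models in R 4.3.3 with edgeR 4.0.16 and limma 3.58.1.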

Additional observations from a re-analysis of the deposited data

How the results depend on the processing

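The count of members past the threshold in knockdown relative to starved cells, 8, was within 1.5 times under all planned settings but edgeR (4) and leaving out single libraries (4 to 12); without starved replicate 2 and knockdown replicate 3 it was 31. In starved relative to fed cells the count of 2 became 1 without a filter, 0 by TPM, 1 by quantile normalization, 4 with only the 2 groups, 1 by edgeR, 6 without starved replicate 2 and knockdown replicate 3, 10 without starved replicate 3 and knockdown replicate 3, and 0 to 3 leaving out single libraries. In knockdown relative to fed cells the count of 1 became 0 without a filter or with one of 5 FPKM, 2 by quantile normalization, 11 and 3 without those pairs of libraries, and 0 to 2 leaving out single libraries. Starved 2 and knockdown 3, and starved 3 and knockdown 3, were left out as pairs after seeing the data. Beside the main fit, the share of all tested genes that passed was counted only for edgeR and for the pairs of libraries left out. In the other settings a changed count cannot be set against that of all genes. Where settings changed a count, the cause was not tested.

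With a replicate block the counts were 8, 3 and 2 in the 3 comparisons in that order. The share of all tested genes that passed with the block was not counted. Replicate numbers were not taken to pair the samples, because not every correlation of same-numbered deviations exceeded 0.1: they were 0.09, 0.62 and 0.37 between knockdown and starved libraries, 0.03, -0.29 and -0.42 between knockdown and fed libraries, and 0.35, -0.29 and -0.56 between starved and fed libraries. Each knockdown library correlated best with the starved library of its own number, while among knockdown libraries starved replicate 1 correlated best with replicate 3 (0.22).

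Without paralogues the large minus small subunit difference between knockdown and fed cells was 0.042; the other values of the subunit gap, the share and the paralogue ratios moved by less than 1 SD in every setting run. Over the 82 tested members, positive differences in knockdown relative to starved cells went from 27 to 65 without starved replicate 2 and knockdown replicate 3. In starved relative to fed cells they went from 65 to 21, so many members changed sign there. Gene by gene, only members past the threshold or with the largest differences were followed through the settings. Signs changed in 3 of the genes followed. RPL35 in starved relative to fed cells was -0.011 without starved replicate 2, with or without knockdown replicate 3, and leaving out single libraries ranged from -0.011 to 0.50. RPS27 in knockdown relative to starved cells ranged from -0.14 (without starved replicate 3) to 0.69. RPLP1 ranged from -0.98 to 0.18 relative to starved and from -0.91 to 0.25 relative to fed cells, the positive values without knockdown replicate 3; it was 0.36 and 0.25 without starved replicate 2 as well, and 0.033 and 0.25 without starved replicate 3 as well.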
